A study of Mus musculus with 24 samples.

Results

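The genes described here are 9 genes used by developing midbrain neurons, several of which are as well known from other tissues: Tfap2d, Lhx9, Slc17a6, Six3, Gata3, Gata2, Pou4f2, Tal1 and Sox14. Of these, 8 encode transcription factors and Slc17a6 encodes a glutamate transporter. They are 9 of the 55450 genes in the count table and were selected on their measured values in cerebellum, with the difference between knockout and wild-type mice in view. Their cerebellum levels are therefore given as a description, library by library and with no test. Only their levels in liver and testes, and the levels of other genes, were tested.

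The libraries were RNA-seq of the cerebellum, the liver and the testes. Mice were wild type (WT) or knockout (KO) for Thumpd1, with 4 libraries per genotype and tissue and 24 in all. Thumpd1 is an adapter that brings the acetyltransferase Nat10 to tRNA. The KO was made by Cas9 editing of C57BL/6N eggs with cuts in exons 1 and 4, followed by backcrossing to C57/BL6, and it affected the whole animal. The WT and KO mice were age-matched littermates of 6 to 12 weeks, and no other allele or treatment is given for them. Both sexes were used in the study, and the sources do not say which cerebellum or liver libraries were from which sex. Several KO lines were made, and which of them gave these libraries is not stated. In each tissue the WT libraries bear the numbers 1 to 4 and the KO libraries 5 to 8.

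In the embryonic midbrain, neurons that release the inhibitory transmitter GABA are specified by a group of factors that includes Gata2, Gata3 and the bHLH protein Tal1, and Sox14 marks a subset of these neurons. Neurons of the dorsal midbrain (the tectum, or superior colliculus) that release glutamate use other factors, among them Tfap2d, Lhx9 and Pou4f2, and carry Slc17a6, also called VGLUT2, which loads glutamate into synaptic vesicles. The adult cerebellum is made up mostly of granule cells, which come from the hindbrain and depend mainly on the sister transporter Slc17a7. Some of the 9 genes also have known sites outside the midbrain. Slc17a6 is used by neurons of the cerebellar nuclei, and Gata2 and Tal1 are used by blood and endothelial cells.

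The libraries held 16353797 to 24728845 counts in cerebellum, 18145725 to 37889615 in liver and 27273231 to 36621604 in testes. A gene with no count in a cerebellum library could still stand at up to 0.121 to 0.183 counts per 1000000 counts (CPM), the level that 3 counts would give. Thumpd1 itself stood at 21.8 to 24.02 CPM in the WT and 0 to 0.113 CPM in the KO cerebellum libraries, so the labels held. In liver Thumpd1 was at 9.19 to 10.1 CPM in WT and 0 to 0.106 CPM in KO. A low level remained in KO testes, 0.768 to 1.14 CPM against 24.3 to 26.3 CPM in WT. Gabra6, a granule cell receptor subunit, was at 354 to 466 CPM in cerebellum and at 0 in every other library. The cerebellum libraries fell into neighbouring pairs. Libraries 1 and 2, 3 and 4, 5 and 6, and 7 and 8 resembled each other more than the rest, with a chi-square per gene of 3.20 to 5.47 within these pairs and 5.58 to 12.3 between other libraries of the same genotype. The sum of 10 choroid plexus markers, genes of the tissue that makes cerebrospinal fluid, was 1107 and 1129 CPM in WT 1 and 2 but 16.5 and 16.3 CPM in WT 3 and 4. It was 18.5 and 19.5 CPM in KO 5 and 6 and 377 and 375 CPM in KO 7 and 8. The labels do not say whether neighbours share an animal, so p-values may rest on fewer independent samples than 4 per group. The fits were repeated with neighbours summed, where Nrgn and Gabra6 kept their calls in cerebellum and the other list genes named as called below lost theirs. Outside cerebellum the pairing was less clear. Neighbours had 3.39 to 15.1 in KO testes against 20.3 to 31.0 for other pairs, but 2.31 to 12.4 in WT testes against 6.20 to 9.13. In liver neighbours had 9.16 to 346 against 92.2 to 252 in WT, and 33.4 to 107 against 70.3 to 169 in KO.

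For 3 members the 250 bases before an annotated transcript start are shown. Gata2 and Gata3 are themselves members, so the member promoters were searched for the letters that GATA factors are known to bind (TGATAA, with A also allowed as the first and G as the last letter, searched on both strands and printed in capitals), and these 3 windows end at the gene start in the annotation and hold 1 match each. Sox14 is shown first because its level differed between tissues, as described further on. The windows come from RefSeq promoter sequences on GRCm38.p6, are printed 5′ to 3′ on the strand of the gene, and lie at chr9:99876171-99876420 (minus strand), chr1:19102772-19103021 (plus strand) and chr4:115056176-115056425 (plus strand).
Sox14: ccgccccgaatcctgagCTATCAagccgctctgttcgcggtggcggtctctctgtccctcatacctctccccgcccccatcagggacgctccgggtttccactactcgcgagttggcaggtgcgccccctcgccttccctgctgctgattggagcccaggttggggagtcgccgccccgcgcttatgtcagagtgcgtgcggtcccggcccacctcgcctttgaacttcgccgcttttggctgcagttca
Tfap2d: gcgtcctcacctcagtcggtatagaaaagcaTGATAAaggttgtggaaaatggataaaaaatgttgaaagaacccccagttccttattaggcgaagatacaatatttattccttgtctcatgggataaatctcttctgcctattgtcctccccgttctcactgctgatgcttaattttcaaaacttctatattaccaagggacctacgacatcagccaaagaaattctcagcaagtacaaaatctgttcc
Tal1: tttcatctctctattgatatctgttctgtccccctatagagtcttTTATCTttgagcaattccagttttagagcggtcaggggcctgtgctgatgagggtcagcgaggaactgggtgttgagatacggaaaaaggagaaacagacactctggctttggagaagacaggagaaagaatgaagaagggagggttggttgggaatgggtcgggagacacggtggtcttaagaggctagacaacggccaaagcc
All 9 members matched the RefSeq set, with 14 start sites among them. A GATA match was found in 6 of those 14 windows, which belong to 5 members because 2 overlapping windows of Tfap2d hold the same match, and in 26.5% of all 32851 promoter windows of the same length. The letters CAGATG, an E-box word bound by Tal1 with its bHLH partners, occurred in 1 of the 14 windows, one of Slc17a6, and in 14.4% of all windows. That Slc17a6 window also holds a GATA match, and its start lies 2631 bases from the gene start in the annotation. For this start, the other Slc17a6 start (176 bases away) and a Tfap2d start (1111 bases away), the bases that follow were not found in annotated transcripts of the gene. The GATA and E-box hits are matches of letters in a short window and nothing more.

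Of the factors of glutamatergic tectal neurons, Tfap2d and Pou4f2 had at most 2 counts in any WT cerebellum library, whereas Lhx9 was counted in all of them. Tfap2d, an AP-2 family factor of the superior colliculus (chromosome 1, 19103022 to 19166346, plus strand), had 0, 1, 0 and 2 counts in WT 1 to 4. It had 22, 34, 24 and 20 counts in KO 5 to 8, which is 1.24, 2.08, 1.23 and 1.05 CPM. No WT library came close to a KO library, and KO 6 was the highest. With 3 WT counts in all, the ratio of KO to WT was 39.4, with an exact 95% interval of 13.1 to 194 that covers counting error only. In these bulk libraries, a change in the number of cells of a type and a change in RNA per cell cannot be told apart.

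Lhx9, a LIM homeodomain factor (chromosome 1, 138825186 to 138848577, minus strand), was counted in all 8 libraries. Its levels were 0.910, 0.647, 0.926 and 0.663 CPM in WT 1 to 4 and 6.50, 7.70, 3.01 and 3.63 CPM in KO 5 to 8. The lowest KO library was above the highest WT library, and the KO libraries split into KO 5 and 6 at the top and KO 7 and 8 below. The ratio over all libraries was 6.51 (counting interval 5.00 to 8.57). It was 9.07 for KO 5 and 6 and 4.25 for KO 7 and 8 against the same WT libraries.

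Slc17a6 (chromosome 7, 51622006 to 51671119, plus strand) was the most abundant member in cerebellum. Its levels were 13.1, 12.1, 7.46 and 9.996 CPM in WT 1 to 4 and 32.1, 36.4, 18.1 and 20.1 CPM in KO 5 to 8. The groups did not overlap, and in both genotypes the first pair of libraries stood above the second. Its ratio of KO to WT was 2.40 (counting interval 2.22 to 2.60). Slc17a6 supplied 69.4% of the summed CPM of the 9 members in WT and 64.2% in KO, so the sum follows this gene.

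Pou4f2, a POU factor known from retinal ganglion cells and from the tectum (chromosome 8, 78433010 to 78436645, minus strand), had 1, 1, 1 and 0 counts in WT 1 to 4 and 16, 17, 3 and 2 counts in KO 5 to 8. Its signal came mainly from KO 5 and 6. KO 7 and 8 lay above WT only by 3 and 2 counts against at most 1 count, at or under the level of 3 counts. The ratio to WT was 15.0 over all KO libraries (counting interval 4.75 to 75.8) and 3.71 for KO 7 and 8 (0.721 to 23.9), which held 5 counts between them.

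The members tied to GABAergic midbrain neurons did not share 1 pattern. Gata2, the factor that stands early in that program (chromosome 6, 88193891 to 88207032, plus strand), was at 4.07, 2.75, 2.29 and 2.80 CPM in WT 1 to 4. It was at 3.22, 2.57, 3.68 and 3.74 CPM in KO 5 to 8, and the groups overlapped. The ratio was 1.10 (counting interval 0.923 to 1.32). Gata2 was the only member whose KO libraries did not all lie above the WT libraries.

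Gata3, which acts after Gata2 in the same neurons (chromosome 2, 9857078 to 9890034, minus strand), had 3, 1, 0 and 0 counts in WT and 22, 14, 12 and 4 in KO 5 to 8. KO 8 was only 1 count above the highest WT library. The ratio was 15.4 (counting interval 5.65 to 58.5). Gata3 overlaps the antisense transcript Gm13256 and, on its own strand, the gene 9230102O04Rik, and both had no count in the 8 cerebellum libraries.

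Tal1 (chromosome 4, 115056426 to 115071755, plus strand) stood at 0.520, 1.01, 0.871 and 0.459 CPM in WT 1 to 4 and at 2.04, 1.83, 1.63 and 1.37 CPM in KO 5 to 8. All KO libraries were above all WT libraries, and the 4 KO values lay close together. The ratio was 2.36 (counting interval 1.73 to 3.26). Because Tal1 and Gata2 are also used by endothelial cells, a list of 10 endothelial markers was summed: it was 229 to 231 CPM in WT and 241 to 266 CPM in KO, 1.10 times the WT mean, and 1 of its 10 genes (Slco1a4, lost in 8 of 13 alternative fits, with an adjusted p of 0.155 when neighbours were summed) passed the test, with 4 of the 10 at an unadjusted p under 0.05. A list of 5 erythroid genes summed to 7.76 to 8.67 CPM in WT and 3.74 to 7.01 CPM in KO, 0.660 times the WT mean and with no overlap. The part of endothelium and blood in the Tal1 difference was not tested.

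Sox14, an HMG-box factor of GABAergic neurons (chromosome 9, 99874106 to 99876170, minus strand, a gene with 1 exon), had 3, 4, 0 and 1 counts in WT cerebellum and 14, 10, 6 and 10 counts in KO 5 to 8. No library overlapped, although KO 7 was within 2 counts of WT 2. The ratio was 5.91 (counting interval 2.73 to 14.6).

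Six3, a homeodomain factor best known from forebrain and eye (chromosome 17, 85613608 to 85629302, plus strand), had 0, 0, 0 and 2 counts in WT 1 to 4 and 37, 32, 11 and 21 counts in KO 5 to 8. WT 4 held both WT counts. The ratio was 59.7 (counting interval 16.1 to 499). The transcript Six3os1 on the opposite strand, which shares 106 exon bases with Six3, had 1, 0, 0 and 0 counts in WT and 20, 11, 14 and 10 in KO. The strand setting used in counting is not stated, so reads of the overlap could belong to either of these 2 genes.

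**Figure D1:**
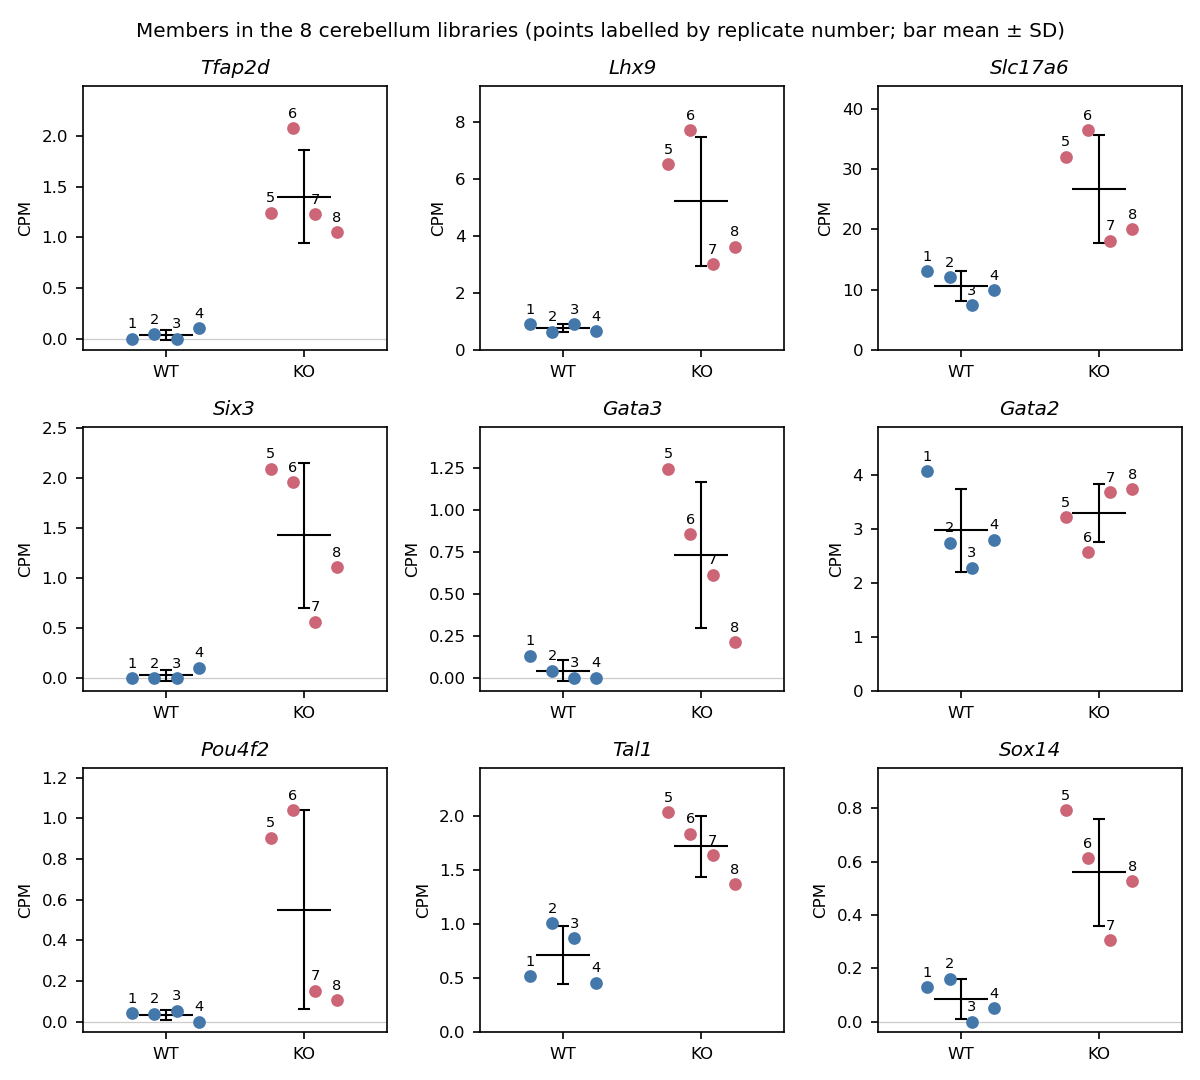
Level of each of the 9 members in CPM in the 8 cerebellum libraries. Blue points are WT, red points are KO, numbers beside points are the library numbers, and black bars give the mean ± SD of 4 libraries; the vertical scale differs between panels. For 8 members every KO point lies above every WT point, Gata2 overlaps, and in those 8 members libraries 5 and 6 lie above 7 and 8, by little for Tfap2d.

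In total 8 of the 9 members had all KO libraries above all WT libraries. Among the 16225 genes tested in cerebellum, which do not include Six3, Gata3, Pou4f2 and Sox14, this was so for 8.79%. The members were selected on this contrast, so the count describes how they were chosen. A gene was tested only if at least 4 of the 8 libraries reached 1 CPM, and 5 members met this: Gata2, Lhx9, Tal1, Slc17a6 and Tfap2d. Tfap2d and Lhx9 met it through their KO libraries alone. Six3 reached 1 CPM in 3 libraries, Gata3 and Pou4f2 in 1 each and Sox14 in none.

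The summed level of the 9 members was 18.9, 16.8, 11.6 and 14.2 CPM in WT 1 to 4 and 50.1, 55.1, 29.3 and 31.8 CPM in KO 5 to 8. The sum averaged 15.4 ± 3.16 CPM over the WT and 41.6 ± 12.9 CPM over the KO libraries (SD, n = 4 each), a fold of 2.71. Without Slc17a6 the fold was 3.17. The difference was not of one size in the KO pairs: on the log2 scale it was 1.78 with KO 5 and 6 alone and 0.99 with KO 7 and 8 alone.

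The levels in the KO pairs were also set against each other, with the counting interval after each ratio. The ratio of KO 5 and 6 to KO 7 and 8 was 7.48 for Pou4f2 (2.90 to 24.5), 2.55 for Gata3 (1.38 to 4.92), 2.44 for Six3 (1.58 to 3.84), 2.13 for Lhx9 (1.71 to 2.66) and 1.79 for Slc17a6 (1.63 to 1.97). It was 1.70 for Sox14 (0.866 to 3.42), 1.44 for Tfap2d (0.954 to 2.19), 1.29 for Tal1 (0.892 to 1.87) and 0.784 for Gata2 (0.601 to 1.02). The intervals cover counting error only and not the spread between libraries, so they are no test of a difference between the pairs. The order of the ratios and differences between members were not tested. The pair with the higher member levels, KO 5 and 6, was the pair with the low choroid plexus sum, whereas in WT the higher Slc17a6 levels were in WT 1 and 2, the pair with the high choroid plexus sum.

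Per kilobase of merged exon, which allows genes to be compared, Slc17a6 was the highest member in both genotypes, at 1.97 (WT) and 4.94 CPM per kb (KO). In WT it was followed by Gata2 at 0.552 and Tal1 at 0.163 CPM per kb, whose libraries did not overlap each other, and then by Lhx9 at 0.0828 CPM per kb. The other 5 were at 0.0415 CPM per kb or less, from Sox14 down to Six3 at 0.00468, and their libraries overlapped. In KO the next after Slc17a6 were Tfap2d at 0.717, Gata2 at 0.612 and Lhx9 at 0.549 CPM per kb. The libraries of these 3 overlapped (0.539 to 1.06, 0.476 to 0.692 and 0.318 to 0.812). Tal1 at 0.392, Sox14 at 0.271, Six3 at 0.262, Gata3 at 0.184 and Pou4f2 at 0.172 CPM per kb followed, each overlapping its neighbour in the order.

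The levels of the 9 genes outside the cerebellum follow, and differences between tissues were not tested. In liver, Tfap2d, Slc17a6, Six3, Pou4f2 and Sox14 had no count in any of the 8 libraries, which allows a level of up to 0.0792 to 0.165 CPM in a library. Lhx9 had 5 counts in the KO and none in the WT liver libraries. Gata2 was at 1.11 to 1.31 CPM in WT and 0.551 to 1.50 CPM in KO liver, Tal1 at 0.964 to 2.01 and 0.852 to 1.77 CPM, and Gata3 at 0.0620 to 0.445 and 0.330 to 0.496 CPM. All of these ranges overlapped. Gata3, under the filter in liver, had 21 counts in WT and 43 in KO, a ratio of 2.36 (counting interval 1.37 to 4.18). WT 4 alone held 12 of the 21 WT counts.

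Of the 2 members tested in liver, limma called 0. The log2 change was -0.16 ± 0.24 (SE, adjusted p 0.743) for Gata2 and 0.09 ± 0.28 (adjusted p 0.888) for Tal1. Neither passed at an unadjusted p under 0.05, and edgeR also called 0. Over all genes tested in liver, 5.91% were called in either direction.

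**Figure D2:**
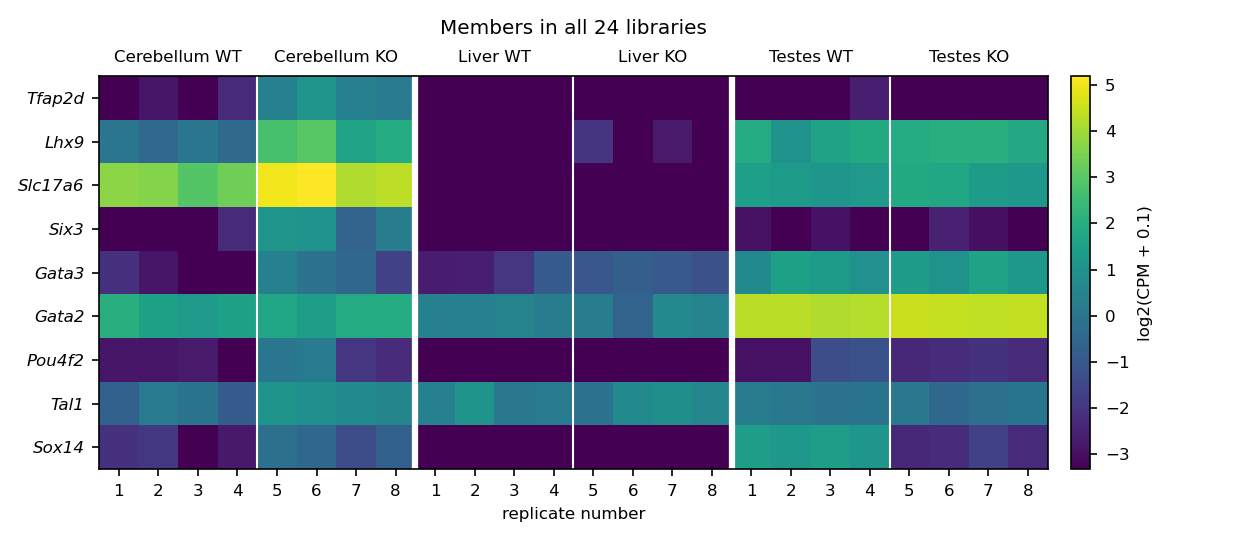
Level of the 9 members in all 24 libraries as log2(CPM + 0.1), with genes as rows and libraries as columns in the order of tissue, genotype and library number; yellow is high and dark purple is 0. Slc17a6 is highest in KO cerebellum, Gata2 is highest in testes, 5 members are at 0 throughout liver, and Sox14 is higher in WT than in KO testes.

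In testes Gata2 was the highest member, with 17.9 to 19.9 CPM in WT and 20.5 to 22.5 CPM in KO. Every KO library was above every WT library, at a ratio of 1.12, but the limma log2 change of 0.07 ± 0.07 (SE) did not pass (adjusted p 0.516). Lhx9 was at 1.92 to 3.68 CPM in WT and 3.39 to 4.15 CPM in KO, Slc17a6 at 2.11 to 2.68 and 2.25 to 3.52 CPM, and Gata3 at 1.59 to 2.73 and 1.94 to 2.87 CPM. All 3 overlapped between genotypes and were not called by limma (adjusted p 0.308, 0.491 and 0.838), at ratios of 1.27 (counting interval 1.11 to 1.46), 1.22 (1.04 to 1.43) and 1.13 (0.951 to 1.33). Tal1 was at 0.836 to 1.12 CPM in WT and 0.623 to 0.960 CPM in KO, under the filter, and Pou4f2 had 1 to 11 and 3 to 5 counts. Tfap2d and Six3 had at most 2 counts in any testes library.

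Sox14 fell in KO testes, the opposite direction to its cerebellum levels. It had 83, 71, 79 and 68 counts in WT testes 1 to 4 and 3, 3, 8 and 3 counts in KO testes 5 to 8. The WT libraries lay between 2.14 and 2.64 CPM and the KO libraries between 0.0960 and 0.218 CPM, so the groups were far apart. Sox14 averaged 2.39 ± 0.258 CPM over the WT and 0.132 ± 0.0579 CPM over the KO testes libraries (SD, n = 4 each). Over summed counts Sox14 was 17.4 times lower in KO (counting interval 10.7 to 30.3).

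The limma log2 change of Sox14 in testes was -5.29 ± 0.31 (SE), with an adjusted p of 1.75e-05. It was -4.14 with TMM normalization (adjusted p 1.25e-05) and -4.15 by edgeR (adjusted p 8.57e-06), so its fitted size depends on the normalization. Sox14 met the 1 CPM filter through the 4 WT libraries alone, the group in which it was high, and it dropped out of the test when any 1 of them was left out. In a fit with no filter, added for this reason, its log2 change was -4.21 with an adjusted p of 0.000186. It was called in 8 of the 9 fits that could include it. The exception was the fit with neighbouring libraries summed, which leaves 2 samples per group (log2 change -5.84, adjusted p 0.125). In WT testes neighbours were not always the libraries most alike. Of all genes tested in testes by limma, 10.7% were called lower and 9.74% higher. Of the other 4 members tested, limma and edgeR both called 0, and 0 had an unadjusted p under 0.05 by limma.

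Genes beside Sox14 were looked at after its values were seen. Within 200000 bases, 1 other gene was tested in testes. Gm47757 on the same strand averaged 5.52 CPM in WT testes against 4.26 CPM in the KO (log2 change -0.49, limma adjusted p 0.00952), but with neighbouring libraries summed its adjusted p was 0.164. The tested Sox14 difference stands beside a shift in germ cell markers: 4 spermatid genes, Prm1, Prm2, Tnp1 and Tnp2, summed to 8515 to 8940 CPM in WT and 5999 to 7918 CPM in KO testes. The part of cell composition in the Sox14 difference was not tested.

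**Figure D3:**
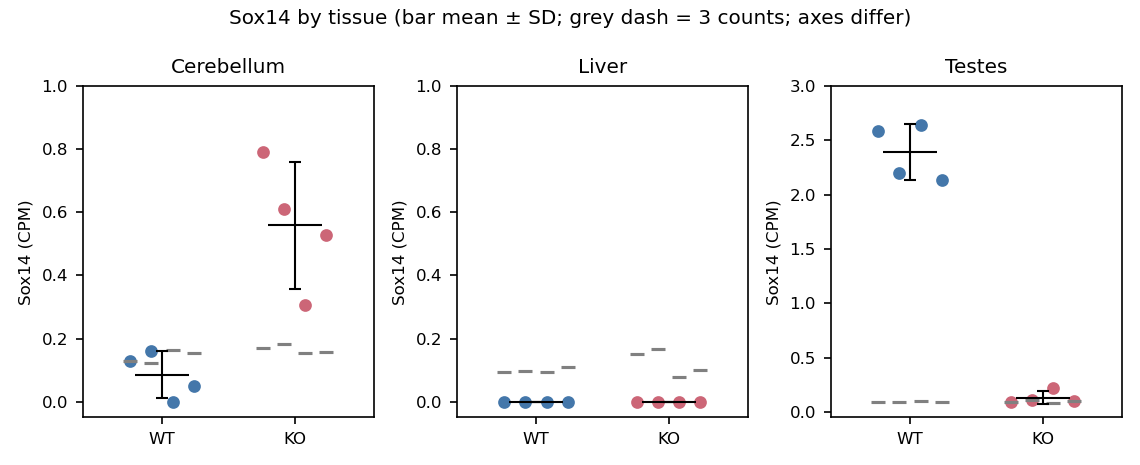
Sox14 level in CPM by genotype in cerebellum, liver and testes, with WT in blue, KO in red, black bars for the mean ± SD of 4 libraries and grey dashes for the level of 3 counts in each library; the vertical scale of the testes panel runs higher. KO is above WT in cerebellum, all libraries are at 0 in liver, and KO is below WT in testes.

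A list of 34 other regulators of midbrain neurons was read in cerebellum, of which 19 were tested by limma. Of these, 3 (Meis2, Tcf7l2 and Irx1) were called higher in KO and 1 (Tfap2b) lower, where 3.93% of all tested genes were called higher and 2.51% lower. The median log2 change of the 19 was 0.09, beside -0.01 over all genes. At an unadjusted p under 0.05 there were 10 of the 19, beside 3929 of all 16225. Meis2, a TALE homeodomain factor of the tectum, was at 2.70 to 4.73 CPM in WT and 8.74 to 15.4 CPM in KO (log2 change 1.58 ± 0.23 SE, adjusted p 0.00203). Tcf7l2, a Wnt effector strong in thalamus and tectum, was at 9.996 to 11.7 and 20.4 to 41.0 CPM (1.38 ± 0.21, adjusted p 0.00259). With neighbouring libraries summed the adjusted p was 0.0779 for Meis2 and 0.0832 for Tcf7l2, and 0 of the 19 were called.

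Irx1, an Iroquois homeobox factor, was called with a smaller change (log2 change 0.38 ± 0.10 SE, adjusted p 0.0486) that was lost in 9 of 13 alternative fits. Tfap2b, the AP-2 factor of cerebellar interneurons and a relative of Tfap2d, was lower in KO at 49.2 to 51.4 CPM against 54.7 to 60.7 CPM in WT (-0.21 ± 0.04, adjusted p 0.0149, lost in 2 of 13). Among markers of midbrain dopamine and floor plate lineages, Foxa1, Foxa2 and Pitx3 were at or under 3 counts in every cerebellum library, whereas Nr4a2, an orphan receptor that the cerebellum also uses, was at 11.2 to 14.9 CPM in WT and 6.58 to 21.6 CPM in KO (log2 change -0.23, adjusted p 0.691). Nr4a2 was above every WT library in KO 5 and 6 (19.45 and 21.6 CPM) and below every WT library in KO 7 and 8 (7.10 and 6.58 CPM). Lmx1a was at 0.599 to 2.83 CPM in WT and 0.306 to 0.971 CPM in KO, and Lmx1b at 0.272 to 0.688 and 0.421 to 0.978 CPM. Also at or under 3 counts in every library were Helt, a switch gene of GABAergic midbrain progenitors, and Pou4f3. En2 and Lhx1, which the cerebellum itself uses, were at 125 to 138 and 60.5 to 67.0 CPM in WT and at 118 to 139 and 65.1 to 69.8 CPM in KO.

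Proteins that bind the members, such as the LIM domain binders of the Lhx and Tal1 complexes, were read as a list of 13, with 11 tested. Ldb2 was called higher at 1.48 to 2.39 CPM in WT and 2.96 to 4.13 CPM in KO (log2 change 0.80 ± 0.17 SE, adjusted p 0.0176), and so was Lmo3 (0.96 ± 0.25, adjusted p 0.0420). Tcf4, a bHLH partner, was called lower (-0.13 ± 0.03, adjusted p 0.0316). The Ldb2, Lmo3 and Tcf4 calls were lost in 4, 7 and 7 of 13 alternative fits, and with neighbours summed their adjusted p was 0.140, 0.177 and 0.168. The list had a median log2 change of 0.05. Ldb1, the main binder in Tal1 complexes, was at 96.0 to 111 CPM in WT and 95.6 to 106 CPM in KO.

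Among 24 paralogs of the members, 8 were tested, limma called 0 higher and Tfap2b was the 1 called lower. By unadjusted p under 0.05 Tfap2b was also the only 1 of the 8. Lhx2, the nearest relative of Lhx9, was under the filter, at 0.0545 to 0.260 CPM in WT and at 1.02, 1.96, 0.715 and 0.579 CPM in KO 5 to 8, with no overlap. Slc17a7, the vesicular glutamate transporter of granule cells, was at 369 to 404 CPM in WT and 361 to 434 CPM in KO, and its libraries overlapped. Of 17 transmitter genes, 9 were tested and 1 was called. Th, which makes the dopamine precursor, rose from 5.01 to 6.92 CPM in WT to 7.34 to 8.94 CPM in KO (log2 change 0.46 ± 0.11 SE, adjusted p 0.0323), a call lost in 8 of 13 alternative fits (adjusted p 0.171 with neighbours summed). The GABA genes Gad1, Gad2 and Slc32a1 were not called.

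A few genes of neighbouring brain regions were also called. Shox2, a homeodomain factor of thalamus and pretectum, was at 0 to 0.109 CPM in WT and at 7.58, 4.34, 2.50 and 1.68 CPM in KO 5 to 8. With 3 WT counts in all, the ratio of KO to WT was 113 (counting interval 38.2 to 549). Shox2 met the filter through its 4 KO libraries alone and dropped out when any 1 of them was left out. The limma adjusted p was 0.000738, 0.00419 with no filter and 0.0848 with neighbours summed. It was 1 of 4 tested genes of a list of 6 for thalamus and pretectum. Of 17 forebrain genes 5 were tested and 2 were called: Nrgn, a calmodulin-binding protein of forebrain neurons (3.42 ± 0.43, adjusted p 0.000951), and Bcl11b, a zinc finger factor of forebrain neurons (1.52 ± 0.26, adjusted p 0.00557). With neighbours summed Nrgn had an adjusted p of 0.0498 and Bcl11b of 0.0710. The 17 summed to 12.4 to 13.4 CPM in WT and to 51.3, 45.1, 33.8 and 27.3 CPM in KO 5 to 8, a fold of 3.03 between the means. Nrgn carried most of this difference, and without it the other 16 summed to 10.8 to 11.5 CPM in WT and 13.9 to 17.02 CPM in KO, a fold of 1.44. Emx1, Fezf2, Dlx2, Dlx5 and Dlx6, which mark the forebrain, were at or under 3 counts in all 8 libraries. Of 17 hindbrain genes 2 were tested and limma called 0, none at an unadjusted p under 0.05. Whether tissue next to the cerebellum was included in any library is not recorded, and its part in the member levels was not tested.

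**Figure D4:**
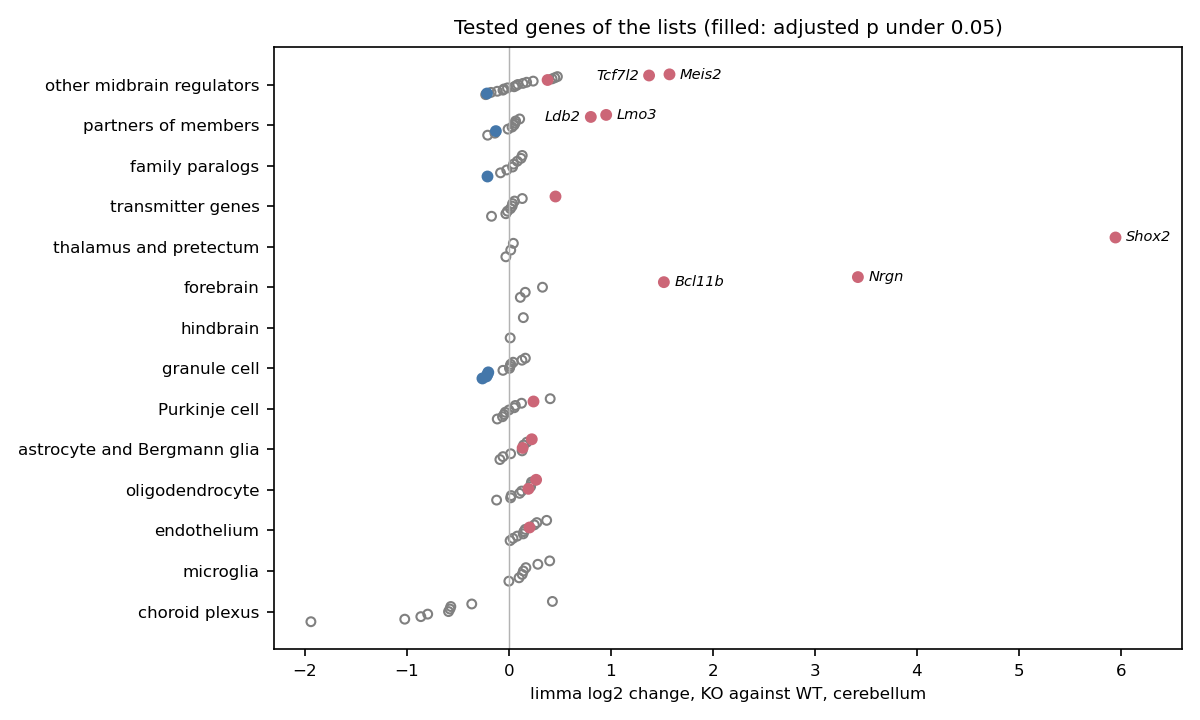
Limma log2 change of KO against WT in cerebellum for the tested genes of 14 lists, 1 point per gene, with genes at an adjusted p under 0.05 filled in red (higher) or blue (lower) and named where the change is over 0.7. Most genes lie near 0, and the called genes farthest to the right are Shox2, Nrgn, Meis2, Bcl11b and Tcf7l2.

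Called markers of the cells that make up the cerebellum had small changes. Of 11 granule cell genes, 4 were called lower and limma called 0 higher, with a median log2 change of 0.01 over the 11. At an unadjusted p under 0.05 there were 6, the 4 called and, in the other direction, Barhl1 (0.16) and Grin2c (0.13). Those called were Zic1 (log2 change -0.21 ± 0.03 SE, adjusted p 0.00138), Gabra6 (-0.26 ± 0.04, adjusted p 0.00557), Neurod1 (-0.22 ± 0.04, adjusted p 0.00658) and Etv1 (-0.20 ± 0.05, adjusted p 0.0233, lost in 7 of 13 alternative fits). With neighbours summed Gabra6 was still called (adjusted p 0.0498), and Zic1 (0.0904) and Neurod1 (0.0939) were not. The 11 genes summed to 6738 to 7004 CPM in WT and to 6307, 6225, 6649 and 6580 CPM in KO 5 to 8. Their lower sum in KO 5 and 6 fell in the same libraries as the higher member levels, and the part of this shift in the member levels was not tested.

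For the other cell types 1 Purkinje gene (Pcp2), 2 astrocyte genes (Gfap and S100b) and 2 oligodendrocyte genes (Mag and Cnp) of 10, 8 and 10 were called higher, with log2 changes of 0.14 to 0.27. These calls were each lost in 5 to 10 of 13 alternative fits. The erythroid gene Alas2 was called lower (-0.58 ± 0.15 SE, adjusted p 0.0391, lost in 11 of 13). For choroid plexus and microglia limma called 0 genes, with 0 of 9 and 3 of 7 at an unadjusted p under 0.05.

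To name the genes whose pattern was most like the member sum, each gene with a mean of at least 1 CPM was described by how its level divides over the 8 cerebellum libraries. The distance from the summed members was then taken, where 0 is the same division and 1 is no overlap. The summed members had 8.29%, 7.37%, 5.09% and 6.23% of their total in WT 1 to 4 and 22%, 24.2%, 12.9% and 14.0% in KO 5 to 8. Over 13200 genes the median distance was 0.230, and 61 genes (0.462%) lay within 0.1. The 8 points behind each distance are the same libraries for every gene, which differ in depth and choroid plexus sum, and the distances are a description with no test.

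The 10 nearest genes were Tcf7l2 (distance 0.0339), Kcnc2 (0.0358), Meis2 (0.0372), Cntn5 (0.0378), Gpr26 (0.0427), Grm5 (0.0457), Kcnip2 (0.0459), Zfhx3 (0.0473), Gabra5 (0.0501) and Rasgrf2 (0.0504). Kcnc2 and Kcnip2 encode a potassium channel and a channel-interacting protein, Grm5 and Gabra5 are receptors for glutamate and GABA, Zfhx3 is a large homeobox factor and Cntn5 is a cell adhesion protein. Kcnc2 was at 3.92 to 5.10 CPM in WT and at 16.0, 15.6, 7.66 and 8.74 CPM in KO 5 to 8. Grm5 was at 10.7 to 11.5 CPM in WT and at 31.3, 34.7, 21.4 and 20.8 CPM in KO 5 to 8. In both, KO 5 and 6 stood above KO 7 and 8, as in the member sum. The sum follows Slc17a6, which was itself at 0.0188, and does not stand for each member. Tal1 (0.109), Lhx9 (0.142) and Sox14 (0.152) were nearer than the median gene, while Gata2 (0.231), Tfap2d (0.248), Six3 (0.284), Gata3 (0.286) and Pou4f2 (0.369) were farther from the sum than it.

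**Figure D5:**
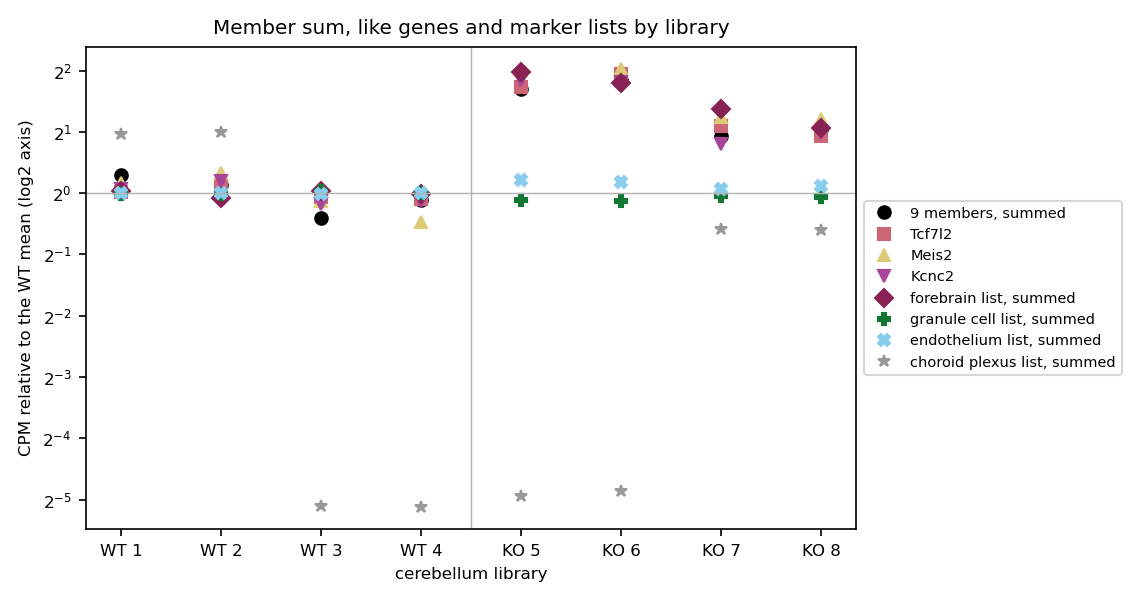
Level of the summed members, 3 genes of a pattern like that sum and 4 summed marker lists in each cerebellum library, divided by the WT mean, on a log2 axis. The members, Tcf7l2, Meis2, Kcnc2 and the forebrain list, whose mean KO sum is mostly Nrgn, are above the WT mean in every KO library and highest in KO 5 and 6, the granule cell and endothelium lists stay near the WT mean, and the choroid plexus list follows the pairs of neighbouring libraries in both genotypes.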

How the data were processed

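Total RNA of 24 tissue samples was depleted of ribosomal RNA with a stranded kit and sequenced. The authors aligned reads to mm10 with STAR and deposited RSEM expected counts per gene (GENCODE M21), with 12.3% to 16.6% of nonzero values not whole (tolerance 0.005). The strand setting and tool versions are not given in the sources used here. All columns matched a label (0 unmatched), groups came from the labels, and each library is numbered in them.

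CPM and the limma fits used the deposited expected counts without rounding, and CPM used the total count. Counts were rounded only for edgeR, DESeq2 and the counting intervals. Genes at 1 CPM or more in at least 4 libraries were tested per tissue by limma-voom with quantile normalization (limma 3.58.1, R 4.3.3). The study's methods give the 1 CPM limit, limma and quantile normalization, and the minimum of 4 libraries and the filter per tissue were chosen here. The test came with Benjamini-Hochberg adjustment over all tested genes and a threshold of 0.05. Ratios of summed counts have exact conditional binomial 95% intervals, which cover counting error only. Alternatives in each tissue were TMM, edgeR 4.0.16 and leaving out each library. DESeq2 1.42.0 and a fit with no filter were planned and run in cerebellum only, and other library sizes were used for the member sum only. Summing of neighbouring libraries, leaving out Slc17a6 or a KO pair, the testes fit with no filter, leaving Nrgn out of the forebrain sum, and the genes near Sox14 were chosen after seeing the data. Named genes were the members, Thumpd1, up to 4 called genes per list with the lowest p and the 10 genes nearest in pattern (predicted genes left out). Genes named beyond these (En2, Lhx1, Ldb1, Slc17a7, Gad1, Gad2, Slc32a1, Nr4a2, Lmx1a, Lmx1b, Lhx2, Barhl1, Grin2c, genes at the floor and markers checking the labels) were chosen after their values were seen. Replicates are separate samples by label only, so p-values measure the spread between them, which may be technical. The members and lists were chosen with earlier results of these data known.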

Additional observations from a re-analysis of the deposited data

Results flagged for a closer look

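The ratio of KO to WT for Sox14 was 5.91 in cerebellum and 0.0574 in testes. All 4 KO libraries lay above all WT libraries in cerebellum and below them in testes. The difference between the tissues was not tested, because Sox14 was under the filter in cerebellum and was selected on its cerebellum values.

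Among the KO testes libraries Sox14 stood at 0.218 CPM in replicate 7 and at 0.0960 to 0.110 CPM in the other 3. This gap was 0.885 of the range of the group, over the Dixon limit for 4 samples. It was 1 of 33 groups of 4 examined, and chance alone sets apart about 5% of such groups. The counts behind it were 8 against 3.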

How the results depend on the processing

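The log2 change of the summed members was 1.44, a direction that the choice of members fixes. It was 0.99 with KO 7 and 8 alone, 1.78 with KO 5 and 6 alone, and 1.27 to 1.57 without any 1 library. Called genes in cerebellum numbered 638 higher and 407 lower. They became 420 and 208 with no filter, 626 lower by DESeq2, 38 and 9 with neighbouring libraries summed, and 300 to 1204 higher and 117 to 1113 lower without 1 library, lowest without WT 1, highest without KO 6 and moved over 1.5 times by each library but WT 2. In liver 357 and 400 became 4 and 7 with neighbours summed and 132 to 355 and 152 to 440 without 1 library (moved by WT 1, 2 and 3 and KO 8). In testes 1882 and 2075 became 1 and 1 with neighbours summed and 756 to 2418 and 950 to 2495 without 1 library (moved by WT 2, 3 and 4 and KO 7). For the other midbrain regulators, the 3 higher and 1 lower became 0 and 0 with neighbours summed and 2 to 5 higher (5 without KO 6) and 0 to 1 lower (0 without WT 3) without 1 library. Outside cerebellum 3 members with no call turned sign when 1 library was left out: Gata3 in testes ranged from -0.092 (without WT 1; -0.035 without KO 7) to 0.187, Gata2 in liver from -0.308 to 0.031 (without KO 6) and Tal1 in liver from -0.065 (without WT 3; -0.038 without KO 7) to 0.294. The cause of these shifts was not tested, and summing neighbours leaves 2 samples per group. Members at 0 to 4 counts per WT library have ratios limited by depth. No paired analysis was possible because the WT libraries are numbered 1 to 4 and the KO libraries 5 to 8 in each tissue, so the groups compared share no number.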
